A study of Mus musculus with 12 samples.

Results

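The transcripts described here encode 9 secreted proteins of the fibroblast matrix: the fasciclin-domain proteins Tgfbi and Postn, the thrombospondin Thbs2, the CCN proteins Ccn2 and Ccn5, the small proteoglycans Lum and Dcn, the elastic fibre core protein Eln and the microfibril protein Mfap5. Their probes were taken by name, as every array probe whose platform symbol is 1 of the 9, without regard to signal, and they are 9 of the 19057 genes named on the array. The 9 genes themselves were chosen with earlier results of these data known, so their counts beside the shares of all genes are descriptive. These genes have 18 probes, of which 17 were tested, 10 were detected on all 12 arrays and 1, for Eln, was detected on none. The study asked what DMBA, a carcinogenic polycyclic aromatic hydrocarbon, does to fibroblasts with and without the DNA-sensing adaptor STING and the DNA-degrading exonuclease Trex1. Mouse embryonic fibroblasts (primary connective tissue cells grown out of embryos) of E13.5 stage and C57BL6/129Sv strain background carried 1 of 4 genotypes, which were wild type (WT, Sting +/+ Trex1 +/+), TKO (Sting +/+ Trex1 -/-), SKO (Sting -/- Trex1 +/+) and STKO (Sting -/- Trex1 -/-). Each genotype received the vehicle DMSO, or DMBA at 20 µg/ml for 24 h or for 48 h, and RNA of each of the 12 combinations was hybridised to 1 Illumina bead array. No label states how long the DMSO cells were cultured, so the effect of DMBA and that of culture time cannot be told apart in any difference from DMSO.

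Matricellular proteins are secreted into the matrix but act mainly as regulators, by binding integrins, growth factors and collagen, rather than as load-bearing fibres. Small leucine-rich proteoglycans coat collagen fibrils and set their spacing and diameter, and decorin also binds TGF-beta. Elastic fibres consist of a crosslinked elastin core on a scaffold of fibrillin microfibrils, to which microfibril-associated glycoproteins attach. In fibroblasts, several of these genes are known targets of TGF-beta and SMAD signalling, and Ccn2 is also a widely used target of the coactivator YAP and its TEAD partners.

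Promoter sequence was in the RefSeq table (build GRCm38.p6) for 3 of the 9 genes, Tgfbi, Thbs2 and Postn. The 250 bases before the annotated start are shown, since Tgfbi and Thbs2 fell under DMBA. For Postn, the fitted DMBA response of its brightest probe differed with STING status. Capitals mark matches to 5 searched motifs, on either strand: the dioxin response element core GCGTG, the SMAD motif CAGACA, the TEAD motif GGAATG, the AP-1 motif TGANTCA and the TATA box TATAAA. The windows are chr13:56609336-56609585 on the plus strand for Tgfbi, chr17:14694263-14694512 on the minus strand for Thbs2, and chr3:54360857-54361106 on the plus strand for Postn, each written 5′ to 3′ in the direction of transcription.
Tgfbi: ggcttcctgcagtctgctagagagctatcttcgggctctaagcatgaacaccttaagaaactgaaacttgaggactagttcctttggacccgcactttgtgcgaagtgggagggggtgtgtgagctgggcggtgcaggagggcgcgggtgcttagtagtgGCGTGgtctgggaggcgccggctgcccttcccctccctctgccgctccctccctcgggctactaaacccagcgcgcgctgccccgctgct
Thbs2: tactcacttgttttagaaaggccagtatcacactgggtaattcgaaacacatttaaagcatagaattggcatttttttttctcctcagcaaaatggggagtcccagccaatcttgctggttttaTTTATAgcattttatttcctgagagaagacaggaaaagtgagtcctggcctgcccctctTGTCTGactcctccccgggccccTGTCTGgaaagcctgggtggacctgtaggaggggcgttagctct
Postn: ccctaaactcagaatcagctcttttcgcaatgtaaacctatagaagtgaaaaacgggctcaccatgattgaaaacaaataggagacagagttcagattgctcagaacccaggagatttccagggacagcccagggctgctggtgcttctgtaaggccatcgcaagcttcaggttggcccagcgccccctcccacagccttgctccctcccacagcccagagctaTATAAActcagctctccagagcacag
The Tgfbi window held GCGTG, the core of the element bound by the aryl hydrocarbon receptor, with its first base at position -90 counted from the start, a motif found in 28.2% of all 32851 windows of this length. In Thbs2 the SMAD motif, read on the opposite strand as TGTCTG, began at positions -67 and -44 (17.1% of windows hold it) and the TATA box lay on the opposite strand at -126 (12.4%). Postn has 2 annotated starts, of which this one has a TATA box at -26 on its own strand. The window of its other start, chr3:54359017-54359266, held none of the 5 motifs. No matches overlapped, and the TEAD and AP-1 motifs, present in 12.6% and 6.75% of windows, were in none of the 4 windows.

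Between 34.6% and 37.2% of probes were detected per array. The targeted transcripts separated by label: Sting1 read 7.80 to 8.12 on the 6 WT and TKO arrays and 5.06 to 6.01 on the SKO and STKO arrays, and Trex1 read 8.12 to 9.46 on the WT and SKO arrays and 6.22 to 7.19 on the others. All values are normalised log2 signals, on which a difference of 1 is a doubling. The Y-linked Eif2s3y was high on the 3 WT arrays (9.20 to 9.62) and at 4.39 to 4.52 on the other 9, while Xist was detected on all 12, so sex makeup, culture and genotype cannot be told apart. All 10 fibroblast markers were detected on all 12 arrays. The endothelial markers Pecam1, Cdh5, Kdr, Tie1 and Cldn5, the epithelial markers Epcam and Krt5, the smooth muscle markers Cnn1 and Myh11, the pericyte marker Rgs5, the adipocyte markers Adipoq, Fabp4 and Plin1, the cartilage and bone markers Acan, Matn1, Hapln1, Ibsp and Alpl, and the tendon markers Tnmd and Kera were detected on none. Other markers of these types were detected on at least 1 array, 3 of 8 endothelial, 6 of 8 epithelial, 6 of 9 smooth muscle and pericyte, 3 of 6 adipocyte, 6 of 11 cartilage and bone and 2 of 4 tendon markers. Among them, the smooth muscle actin gene Acta2 read 14.76 to 15.28, the cartilage regulator Sox9 10.39 to 11.39 and the lipase gene Lpl 9.78 to 13.11. Of 11 macrophage markers on the array, 10 were detected on at least 1 array, and their levels are given beside the results they moved with.

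Each comparison of treatments rests on n = 4 genotypes and each comparison of genotypes on n = 3 treatments, with no replicate of any single array, and no label names separate cultures. The p-values therefore reflect the spread among these single arrays, which may be technical. Values after ± are standard errors from limma, and a probe was called where its 2-sided p, adjusted by Benjamini and Hochberg's method across the 18389 tested probes, was under 0.05. Sets of 4 values without names are given in the order WT, TKO, SKO, STKO. A gene is represented by its brightest tested probe (probe 1), and other probes of the 5 genes that have them are numbered by decreasing brightness. In RNA from whole cultures, fewer cells of a type and less RNA per cell cannot be told apart.

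**Figure D1:**
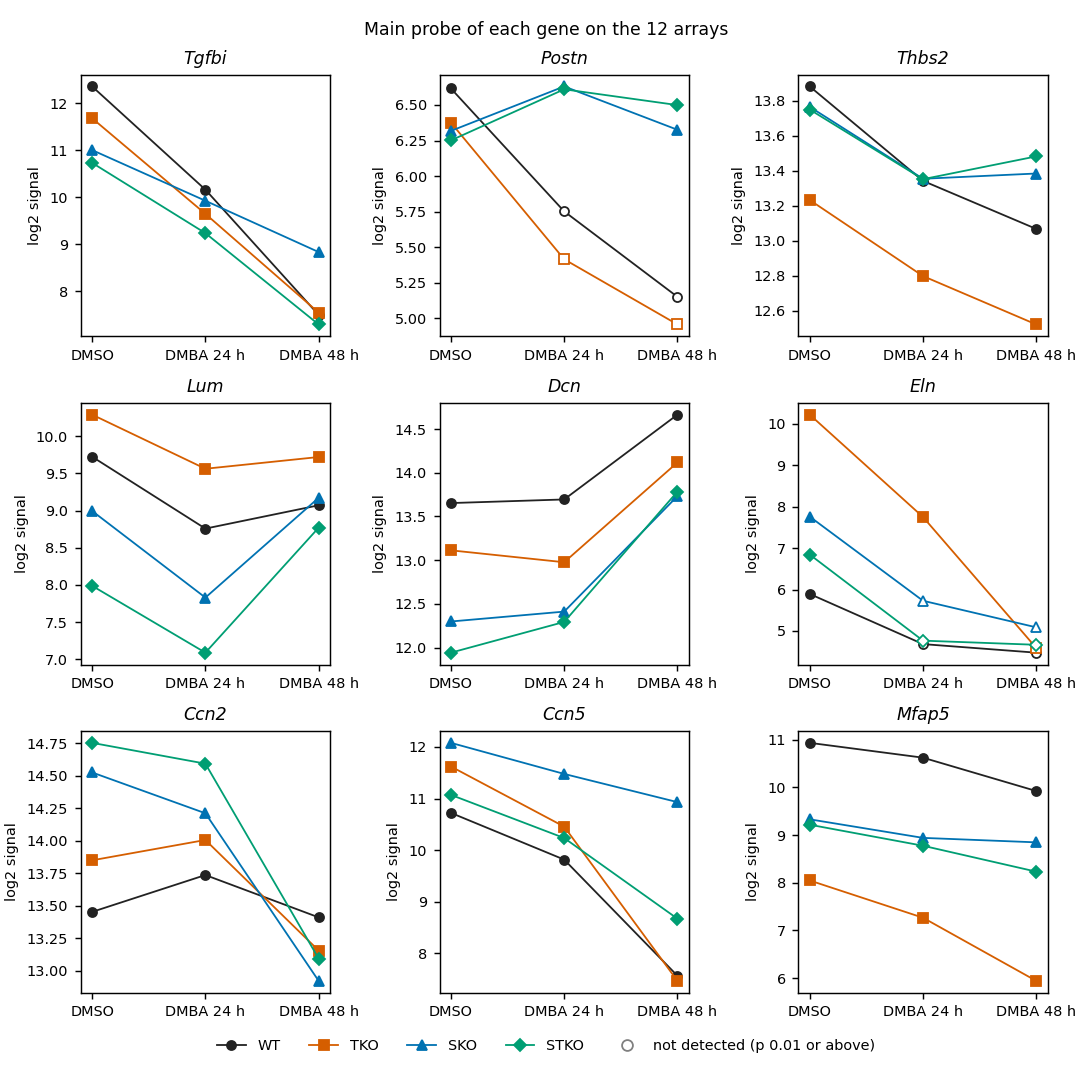
Normalised log2 signal of the main probe of each gene (y axes, 1 scale per panel) under DMSO and after 24 h and 48 h of DMBA (x axes), with 1 line per genotype, 1 point per array and open points for arrays on which the probe was not detected. Tgfbi lies at 10.73 to 12.35 under DMSO and at 7.29 to 8.83 at 48 h, Dcn lies at 13.73 to 14.66 at 48 h, and Eln was open at 48 h in all 4 genotypes.

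After 24 h of DMBA, 4 of the 9 genes had fallen and 0 had risen: Tgfbi, Eln, Lum and Thbs2. Over all 10142 genes tested by their main probe, 9.73% fell and 7.01% rose (16.7% called in all). After 48 h, 6 had fallen (Tgfbi, Eln, Ccn5, Mfap5, Ccn2 and Thbs2) and 1, Dcn, had risen, where 21.9% of all genes fell and 19.2% rose (41.1% called). The falls at each time include Eln, whose probe passed the detection filter through the DMSO arrays and TKO at 24 h, where it was high. The median difference of the 9 genes was -0.48 at 24 h and -1.0 at 48 h, beside 0.00 and -0.02 for all genes tested. Without adjustment, 0 of the 9 genes rose at an unadjusted p under 0.05 at 24 h in limma and 5 fell. At 24 h the falls depended on which genotypes were in the fit: 1 remained called without WT (Tgfbi), 1 without TKO (Eln) and 0 without STKO, while without SKO 2 were called, Tgfbi and Ccn5. Over all probes these fits, made on 9 arrays, called 729 without WT, 672 without TKO, 581 without STKO and 3464 without SKO, against 2876 on all arrays.

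Tgfbi, a secreted adhesion protein that links collagen to integrins and is named for its induction by TGF-beta, fell the most of the genes detected on every array. Under DMSO it read 12.35, 11.68, 11.00 and 10.73. At 24 h it read 10.16, 9.64, 9.92 and 9.23, and at 48 h 7.49, 7.54, 8.83 and 7.29. The 3 treatments did not overlap: every DMSO array lay above every 24 h array, and every 24 h array above every 48 h array. The mean difference from DMSO was -1.70 ± 0.33 at 24 h (adjusted p = 0.0106 by limma) and -3.65 ± 0.33 at 48 h (adjusted p = 8.9e-05 by limma), a 12.6-fold lower level, and it was negative in 4 of 4 genotypes at both times. Tgfbi probe 2 gave -1.72 and -3.57, although at 48 h it was detected in SKO alone. The fall at 24 h lost its call without TKO (-1.59, adjusted p = 0.0729 by limma) and without STKO (-1.77, adjusted p = 0.0633), whereas the fall at 48 h held in each of 11 alternatives.

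Postn encodes periostin, the paralog of Tgfbi that binds collagen and tenascin C and promotes collagen crosslinking, and its probes did not move together. Probe 1 read 6.25 to 6.62 on the 4 DMSO arrays. At 24 h it read 5.75 in WT and 5.41 in TKO, where it was not detected, against 6.63 in SKO and 6.61 in STKO. At 48 h the values were 5.15 and 4.96, again not detected, against 6.33 and 6.50. The WT and TKO arrays under DMBA thus lay below all DMSO arrays, while SKO and STKO lay at 6.33 to 6.63 under DMBA, close to the DMSO range. Averaged over genotypes, probe 1 differed from DMSO by -0.29 ± 0.28 at 24 h and -0.66 ± 0.28 at 48 h without a call (adjusted p = 0.514 and 0.0882 by limma). The 48 h difference was called without STKO (-0.96, adjusted p = 0.0453 by limma). Probe 2 fell at both times, by 0.56 ± 0.12 and 0.88 ± 0.12 on the log2 scale, and was lower in 4 of 4 genotypes, but it was detected on 1 of 4 arrays at each DMBA time. Probe 3, detected on 3 arrays (SKO at both DMBA times and STKO at 48 h), differed by 0.28 and 0.74, without a call. The average DMBA effect on Postn is therefore given per probe only.

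Thbs2, a thrombospondin that restrains angiogenesis and supports collagen fibril assembly, had small falls. It read 13.88, 13.23, 13.76 and 13.75 under DMSO. At 24 h these became 13.34, 12.80, 13.35 and 13.35, and at 48 h 13.07, 12.52, 13.38 and 13.48. Every genotype was lower under DMBA than under DMSO, although the ranges of the treatments overlapped, with TKO lowest in each. The difference was -0.45 ± 0.12 at 24 h (adjusted p = 0.0304 by limma) and -0.54 ± 0.12 at 48 h (adjusted p = 0.0049 by limma). The 24 h call was lost when any 1 genotype was left out, with adjusted p = 0.12 without WT, 0.125 without TKO, 0.0544 without SKO and 0.0999 without STKO (limma). The 48 h call held in all 11 alternatives.

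The CCN genes fell at 48 h. Ccn2, a CCN protein known as connective tissue growth factor that promotes fibroblast matrix production, read 13.45, 13.85, 14.52 and 14.75 under DMSO. At 24 h it read 13.74, 14.00, 14.21 and 14.59, and at 48 h 13.41, 13.15, 12.92 and 13.09. The order of the genotypes at 48 h differed from that under DMSO, since SKO and STKO, highest before, were then lowest. The mean difference was -0.01 ± 0.24 at 24 h, which was not called, and -1.0 ± 0.24 at 48 h (adjusted p = 0.00814 by limma), negative in 4 of 4 genotypes but only -0.04 in WT against -1.60 in SKO and -1.66 in STKO. Probe 2 gave 0.08 and -0.96. Without STKO the 48 h difference was -0.78 and was not called (adjusted p = 0.062 by limma).

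Ccn5, the CCN family member that lacks the C-terminal cysteine knot domain, also fell at 48 h. It read 10.72, 11.62, 12.08 and 11.07 under DMSO. At 24 h the values were 9.82, 10.46, 11.48 and 10.24, and at 48 h 7.57, 7.47, 10.93 and 8.67. SKO held the highest level at each time and at 48 h remained above the DMSO level of WT, when WT and TKO lay lowest. The 24 h difference of -0.88 ± 0.38, negative in 4 of 4 genotypes, was not called (adjusted p = 0.146 by limma), but it was called without SKO (-0.97, adjusted p = 0.0499 by limma). At 48 h the difference was -2.71 ± 0.38 (adjusted p = 0.000624 by limma), from -1.15 in SKO to -4.15 in TKO, and held in all 11 alternatives.

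Of the small proteoglycans, Dcn rose at 48 h and Lum fell at 24 h. Dcn encodes decorin, a proteoglycan with a single glycosaminoglycan chain that binds collagen fibrils and TGF-beta. Its probe 1 read 13.65, 13.11, 12.30 and 11.94 under DMSO. The 24 h values were 13.69, 12.98, 12.41 and 12.29, and the 48 h values 14.66, 14.12, 13.73 and 13.78. Every 48 h array lay above every DMSO and 24 h array, while DMSO and 24 h overlapped. The difference was 0.09 ± 0.14 at 24 h, not called, and 1.32 ± 0.14 at 48 h (adjusted p = 0.000178 by limma), higher in 4 of 4 genotypes and called in all 11 alternatives. Dcn probes 2 and 3 also rose at 48 h, by 1.51 ± 0.15 and 1.25 ± 0.20. Probe 4 gave 0.54 ± 0.15 but was detected on the WT arrays alone.

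Lum, which encodes lumican, a proteoglycan that limits collagen fibril thickness, is the direct neighbour of Dcn on chromosome 10 in the RefSeq gene table. It read 9.72, 10.29, 8.99 and 7.99 under DMSO. At 24 h it read 8.76, 9.56, 7.83 and 7.09, lower in every genotype, and at 48 h 9.07, 9.72, 9.17 and 8.77. At 48 h the 4 genotypes lay closer together (SD 0.40) than under DMSO (SD 0.99), with WT and TKO below and SKO and STKO above their DMSO values. The 24 h difference was -0.94 ± 0.25 (adjusted p = 0.0317 by limma), and probe 2 gave -0.73 ± 0.24 without a call (adjusted p = 0.0683). The call was lost when any 1 genotype was left out, with differences of -0.93 without WT, -1.01 without TKO, -0.86 without SKO and -0.95 without STKO, and adjusted p = 0.0987, 0.0795, 0.075 and 0.063 (limma). At 48 h the difference was -0.07 ± 0.25 (adjusted p = 0.855 by limma).

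Eln encodes tropoelastin, the soluble precursor of the elastic fibre core. Its tested probe read 5.89, 10.23, 7.76 and 6.85 under DMSO and was detected on all 4 of these arrays. At 24 h it was detected in TKO alone, at 7.75, and the values not above the detection limit were 4.68 in WT, 5.73 in SKO and 4.77 in STKO. At 48 h it was detected on none, with values of 4.48 to 5.09. The fitted difference was -1.95 ± 0.55 at 24 h (adjusted p = 0.0398 by limma) and -2.98 ± 0.55 at 48 h (adjusted p = 0.00238 by limma), negative in 4 of 4 genotypes. The probe was tested because the DMSO arrays and TKO at 24 h detected it, so these calls are no support beyond that detection pattern. Since no 48 h array was above the limit, the fall there is a bound: the level was at least 3.98-fold lower than under DMSO, computed against the lowest signal among detected probes on each array. This bound rested on TKO: it was at least 2.23-fold without TKO, and within single genotypes it was at least 1.23-fold in WT, 22.5-fold in TKO, 4.31-fold in SKO and 2.11-fold in STKO. With undetected values raised to that limit the 24 h difference was -1.39 and was not called (adjusted p = 0.114 by limma). It was also not called without WT (-2.19, adjusted p = 0.0828), without SKO (-1.92, adjusted p = 0.0881) or without STKO (-1.91, adjusted p = 0.141), whereas the 48 h call held in all 10 alternatives that tested it. Each of the 10 used the undetected 48 h values, so they too add no support beyond the detection pattern.

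Mfap5, a glycoprotein of the fibrillin microfibrils, fell at 48 h. Its single probe read 10.94, 8.05, 9.33 and 9.22 under DMSO. At 24 h it read 10.63, 7.27, 8.94 and 8.78, and at 48 h 9.93, 5.94, 8.85 and 8.23. Each genotype read lower at each later time, but the genotypes lay so far apart that the ranges of the treatments overlapped. The difference was -0.48 ± 0.22 at 24 h (adjusted p = 0.157 by limma, not called) and -1.15 ± 0.22 at 48 h (adjusted p = 0.00266 by limma), the latter called in all 11 alternatives.

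**Figure D2:**
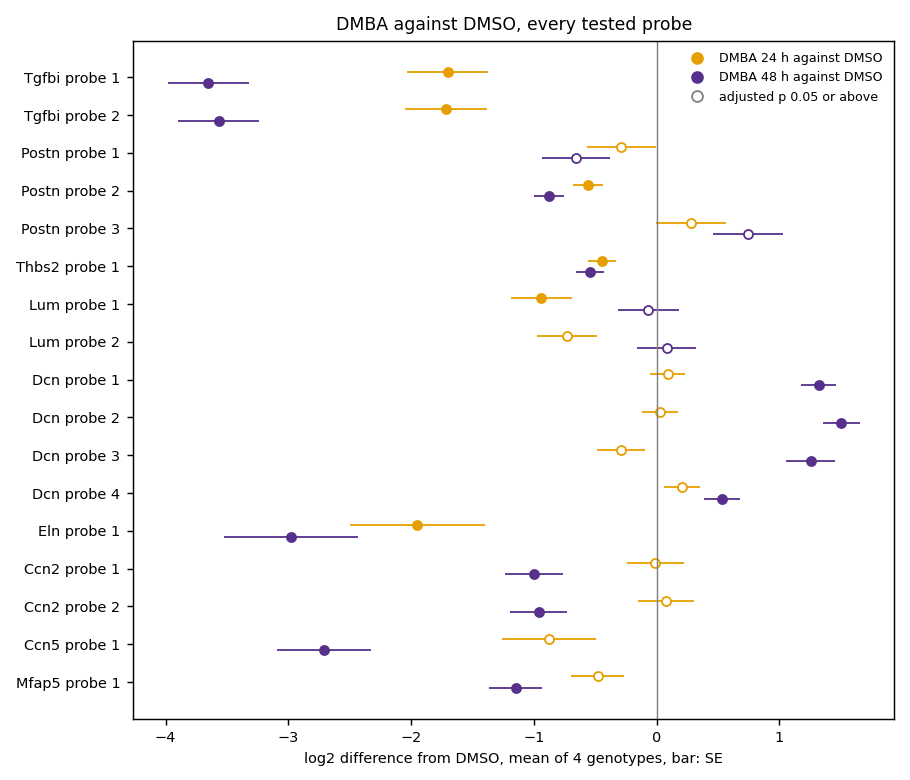
Difference from DMSO in log2 signal (x axis, mean over the 4 genotypes, bars SE) for each of the 17 tested probes (y axis), in 1 colour for 24 h and 1 for 48 h, with open points where the adjusted p was 0.05 or above. The 4 Dcn probes lie to the right of 0 at 48 h, and both Tgfbi probes lie furthest to the left, at -3.65 and -3.57.

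Between 24 h and 48 h, 3 of the 9 genes fell and 1 rose, while 5.13% of all genes fell and 5.31% rose (10.4% called). Tgfbi fell by a further 1.95 ± 0.33 on the log2 scale (adjusted p = 0.00851 by limma), Ccn5 by 1.84 ± 0.38 (adjusted p = 0.0181) and Ccn2 by 0.99 ± 0.24 (adjusted p = 0.0286), each in 4 of 4 genotypes. Dcn rose by 1.23 ± 0.14 (adjusted p = 0.00188 by limma). Lum, at 0.87 ± 0.25 and higher in 4 of 4 genotypes, missed the threshold (adjusted p = 0.0517 by limma), as did Mfap5 at -0.67 ± 0.22 (adjusted p = 0.0814). Lum passed with median scaling (0.94, adjusted p = 0.0318 by limma). Without STKO none of the 3 falls was called (adjusted p = 0.076 for Tgfbi, 0.105 for Ccn5 and 0.158 for Ccn2 by limma), and without TKO only that of Tgfbi was. The Ccn2 fall was also lost without SKO (adjusted p = 0.0729) and the Ccn5 fall without WT (adjusted p = 0.0989). The rise of Dcn kept its call in all 11 alternatives.

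Other genes of the same kinds, from lists chosen by function, are given beside them. Over all genes 21.9% fell and 19.2% rose at 48 h (41.1% called). At 48 h, 6 of 10 tested matricellular genes fell and 0 rose, among them the calcium-binding Smoc1 (-2.22, detected on 5 arrays) and Sparc (-0.45) and the CCN genes Ccn3 (-1.53) and Ccn4 (-0.99). Of 7 other small leucine-rich proteoglycans 3 fell, the collagen-binding Fmod (-1.29) and Prelp (-1.22) and asporin (Aspn, -1.01, detected on 6 arrays), and 0 rose, so Dcn was the 1 gene of this family to rise among the 9 tested. Of 13 other elastic fibre and microfibril genes 6 fell, among them Mfap3 (-0.49) and the crosslinking enzyme Loxl1 (-0.52), and 2 rose, Efemp1 (1.03) and the TGF-beta binding protein Ltbp3 (0.58). These counts use main probes, and other probes went the other way for Loxl1 (0.24) and for Fbln2 (up to 2.08), which is also among the falls (-0.46). At an unadjusted p under 0.05 limma also gave 0 rises among the matricellular genes and 0 among the proteoglycans. Smoc1 and Aspn were detected on the DMSO arrays, where they were high, and otherwise only in SKO under DMBA. Their falls, at 48 h or at 24 h, are therefore no support beyond that detection pattern. The lists' medians were -0.56, -0.70 and -0.40.

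Among 15 tested genes of TGF-beta signalling 6 fell and 2 rose at 48 h, beside 21.9% and 19.2% of all genes. The list's median was -0.10. The ligand Tgfb3 (-1.06) and the inhibitor Smad6 (-0.73) fell, and the coreceptor Eng (0.89) and the repressor Tgif1 (0.65) rose. Of 13 genes of the YAP and TEAD pathway 0 fell by limma (1 at an unadjusted p under 0.05) and 2 rose, the kinase Lats2 (0.79) and Nuak2 (0.51), with a median of -0.09. At 24 h, 4 of the 10 matricellular genes fell, Smoc1 (-2.23), Ccn3 (-2.02), Tnc (-0.93) and Ccn4 (-0.50), but 1 of 7 proteoglycans (Aspn, -0.92) and 0 of 13 elastic fibre genes (3 at an unadjusted p under 0.05). Over all genes 9.73% fell and 7.01% rose at 24 h. Fibroblast markers fell as well at 48 h, 6 of 10, with Pdgfrb at -1.21 and Col1a1 at -1.33 and a median of -0.53. The summed fibroblast marker level, in linear normalised signal, was 63754 to 79041 on the DMSO arrays, 46454 to 75340 at 24 h and 44421 to 69276 at 48 h. The summed macrophage marker level was 3909 to 30397, 2597 to 16872 and 5168 to 29737, with 6 of 9 tested markers down and 2 up at 48 h. The part of either in the falls was not tested.

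**Figure D3:**
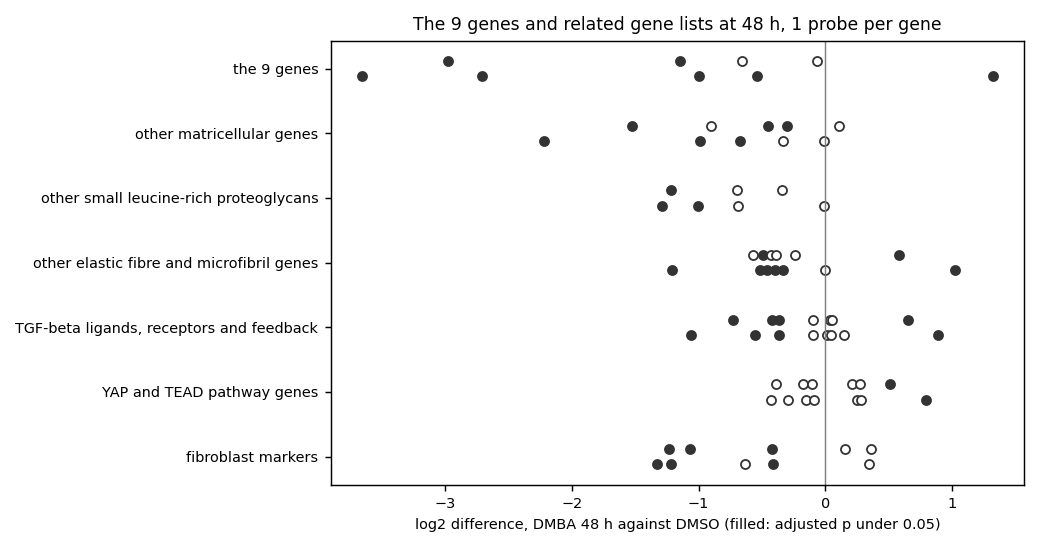
Difference between 48 h of DMBA and DMSO in log2 signal (x axis), with 1 point per gene by its main probe, for the 9 genes and each related list (y axis) and filled points where the adjusted p was under 0.05. Of the other matricellular genes and proteoglycans no filled point lies to the right of 0, and the elastic fibre list has filled points on both sides.

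Genotypes differed in these genes apart from treatment. In cells that lack Trex1 only (TKO against WT), 2 of the 9 genes were lower and 0 higher, beside 3.44% of all genes lower and 2.38% higher (5.82% called), with 2 of the 9, Eln and Lum, higher by limma at an unadjusted p under 0.05. In cells that lack STING only (SKO against WT), 2 were lower and 1 higher, beside 4.23% and 2.73% (6.96% called). Removing STING from cells without Trex1 (STKO against TKO) went with 2 lower and 2 higher, beside 2.82% and 2.63% (5.45% called). Removing Trex1 from cells without STING (STKO against SKO) gave 0 calls among the 9 in limma, beside 0.118% of all genes lower and 0.0493% higher (0.168% called), with 2 of the 9 lower at an unadjusted p under 0.05, Ccn5 (-1.50 ± 0.44, lower in 3 of 3 treatments) and Lum (-0.72 ± 0.29, lower in 3 of 3).

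In the mean over the 3 treatments, Mfap5 had the widest separation between genotypes of the 9 genes, although under DMSO Eln lay further apart between TKO and WT. WT read 9.93 to 10.94 over the 3 treatments, SKO 8.85 to 9.33, STKO 8.23 to 9.22 and TKO 5.94 to 8.05, so that WT lay above all other genotypes and TKO below all others, while SKO and STKO overlapped. TKO differed from WT by -3.41 ± 0.25 (adjusted p = 4.23e-05 by limma), a 10.6-fold lower level, and SKO by -1.46 ± 0.25 (adjusted p = 0.00741). STKO was higher than TKO by 1.66 ± 0.25 (adjusted p = 0.00308 by limma). Each of these held in 3 of 3 treatments. The difference between TKO and WT kept its call in all 9 alternatives, and the other 2 lost it when the 24 h arrays were left out (adjusted p = 0.212 for SKO and 0.108 for STKO by limma).

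Thbs2 shared the low level in TKO. TKO read 12.52 to 13.23, against 13.07 to 13.88 in WT, 13.35 to 13.76 in SKO and 13.35 to 13.75 in STKO, and within each treatment TKO was the lowest genotype. Its difference from WT was -0.58 ± 0.13 (adjusted p = 0.0343 by limma), and STKO exceeded TKO by 0.68 ± 0.13 (adjusted p = 0.0164). With only 2 treatments in the fit neither was called: the adjusted p for TKO against WT was 0.187 without DMSO, 0.293 without 24 h and 0.119 without 48 h, and for STKO against TKO 0.0514, 0.185 and 0.153 (limma).

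Macrophage markers moved in the same comparisons. Their summed level was 2597 to 5168 in TKO, against 16872 to 30397 in WT, 11039 to 25324 in SKO and 14078 to 25945 in STKO. Of 9 tested markers 7 were lower in TKO than in WT and the count for STKO above TKO was also 7, among them Lyz2 (-2.97 and 2.46) and Tyrobp (-2.55 and 2.19), which had the smallest p, and C1qc (-2.91 and 2.90). Over all genes 3.44% were lower in TKO than in WT, 4.23% lower in SKO than in WT and 2.63% higher in STKO than in TKO. Itgam was detected on no array. The part of this in the Mfap5 and Thbs2 differences was not tested. In SKO against WT, where Mfap5 was also lower, 1 of the 9 markers was lower (Lyz2, -0.62).

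Dcn was highest in WT within each treatment. SKO differed from WT by -1.19 ± 0.16 (adjusted p = 0.00232 by limma) in 3 of 3 treatments, and Dcn probes 2 and 3 gave -1.43 and -2.04, both called. Probe 4 was detected in WT alone and was tested because of it, so it has only a bound, at least 1.15-fold lower in SKO and in TKO, and supports neither difference. STKO differed from TKO by -0.73 ± 0.16 (adjusted p = 0.0319 by limma), called for probe 3 (-0.92) but not for probe 2 (-0.49). TKO differed from WT by -0.60 ± 0.16 on probe 1, not called (adjusted p = 0.074 by limma), while probes 2 and 3 were called at -0.99 and -1.12. The mean of all Dcn probes was called for TKO (-0.87, adjusted p = 0.00788 by limma), but it includes probe 4 and is no separate support. Without the 24 h arrays the SKO difference was not called (adjusted p = 0.117 by limma). The STKO difference lost its call without any 1 treatment (adjusted p = 0.175 without DMSO, 0.323 without 24 h and 0.0503 without 48 h).

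Lum was lower in STKO than in TKO, with a difference of -1.91 ± 0.29 (adjusted p = 0.003 by limma; probe 2, -1.88), while SKO against WT gave -0.52 ± 0.29 without a call (adjusted p = 0.332), and the difference between these effects was not tested. TKO held the highest Lum level within each treatment, although its difference from WT (0.67 ± 0.29, 3 of 3 treatments) was not called (adjusted p = 0.304 by limma). The STKO difference lost its call without the 24 h arrays (-1.63, adjusted p = 0.125 by limma).

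Ccn5 was higher in SKO than in WT by 2.13 ± 0.44 (adjusted p = 0.0194 by limma), by 1.36 under DMSO, 1.66 at 24 h and 3.36 at 48 h. It lost the call without the 24 h arrays (2.36, adjusted p = 0.211 by limma) and when all probes were tested with no filter on dim ones (adjusted p = 0.0797). For STKO against TKO the Ccn5 difference was 0.14 ± 0.44 (adjusted p = 0.923 by limma). Eln read higher in TKO than in WT by 4.33 under DMSO. At 24 h, when WT was not detected, it was at least 3.89-fold higher in TKO, and at 48 h neither was detected. The mean of 2.51 ± 0.63 missed the threshold (adjusted p = 0.0525 by limma) and passed without the 48 h arrays (3.70, adjusted p = 0.00441). Without those arrays STKO was also lower than TKO in Eln (-3.18, adjusted p = 0.00657 by limma), where the fit on all arrays gave -2.10 ± 0.63 (adjusted p = 0.109). Both of these rest on undetected 24 h values, of WT and of STKO, and with these raised to the limit the mean differences over DMSO and 24 h were at least 8.85-fold between TKO and WT and 6.23-fold between TKO and STKO.

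Tgfbi, Ccn2 and Postn probe 1 were not called in any genotype comparison on all arrays. For Tgfbi the order of genotypes changed with treatment: SKO differed from WT by -1.35 under DMSO and by 1.34 at 48 h. Postn probe 1, which differed little between genotypes under DMSO, was higher in SKO than in WT (1.03, adjusted p = 0.0102 by limma) and in STKO than in TKO (1.37, adjusted p = 0.00496) when the DMSO arrays were left out. WT and TKO were not detected on those arrays, so these are bounds, at least 1.72-fold and 1.70-fold. Postn probe 2, detected in WT, TKO and STKO under DMSO alone, was lower in TKO than in WT (-0.68 ± 0.14, adjusted p = 0.0187 by limma) and higher in STKO than in TKO (0.66 ± 0.14, adjusted p = 0.0247). Under DMBA both sides of each comparison were undetected, at 4.53 to 5.66, so the size of neither difference is fixed. Under DMSO, where all were detected, the differences were -0.60 and 0.40.

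**Figure D4:**
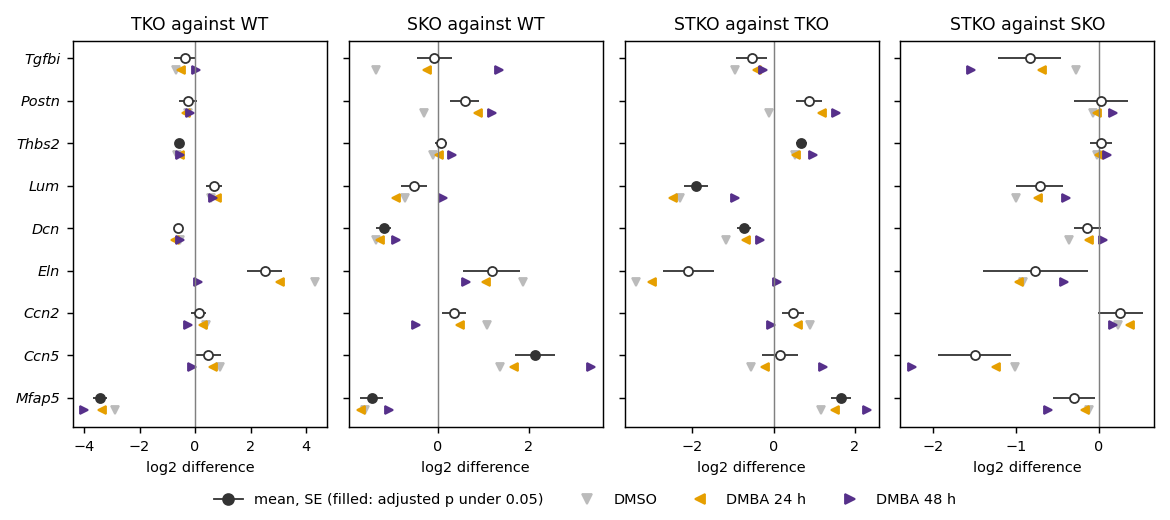
Difference in log2 signal between 2 genotypes (x axes) for the main probe of each gene (y axis), with the mean over the 3 treatments and its SE in dark, filled where the adjusted p was under 0.05, and the difference within each treatment as coloured markers. Mfap5 lies at -3.41 in TKO against WT, and the STKO against SKO panel has no filled mean.

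Whether the DMBA response depended on STING was asked by comparing the mean response over 24 h and 48 h between the genotypes with STING (WT and TKO) and those without it (SKO and STKO). Of the 9 genes, 1 had a more negative and 1 a more positive response with STING, Postn and Ccn2, beside 3.43% and 2.99% of all genes (6.42% called). Postn probe 1 responded by -1.17 in WT and -1.19 in TKO, against 0.16 in SKO and 0.30 in STKO, so the genotypes with STING lay on the other side of 0 from those without. The difference was -1.41 ± 0.14 (adjusted p = 0.0125 by limma). Since the 4 DMBA arrays of WT and TKO were not above the detection limit, its size is not fixed, and with undetected values raised to that limit it was -0.79, still called. It was called in all 7 alternatives that tested it, at -1.57 to -0.79 with adjusted p = 0.00605 to 0.0307 (limma). These included the mean of all tested Postn probes, which holds probe 3, and no alternative left out a genotype. Each alternative used undetected WT and TKO arrays under DMBA, and probe 1 was tested because of the arrays where it was high. The alternatives thus add no support beyond that detection pattern. Postn probe 2 gave -0.42 ± 0.14 without a call (adjusted p = 0.114 by limma) and was lower under DMBA in all 4 genotypes. Probe 3 was tested only because SKO and STKO arrays under DMBA detected it, and no other array did, so its fitted difference (-1.25) is no support for that of probe 1.

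Ccn2 responded by 0.12 in WT and -0.27 in TKO, against -0.96 in SKO and -0.91 in STKO. These groups did not overlap, and the difference was 0.86 ± 0.20 (adjusted p = 0.0484 by limma). The call was lost in 4 of 8 alternatives: median scaling gave 0.77 (adjusted p = 0.0581 by limma), the mean of both probes 0.76 (adjusted p = 0.0603), testing all probes 0.86 (adjusted p = 0.0957) and the response at 24 h alone 0.46 (adjusted p = 0.237). Probe 2 gave 0.65 ± 0.21 (adjusted p = 0.0941 by limma). None of the other 7 genes was called. Tgfbi had responses of -3.53 in WT and -3.09 in TKO against -1.62 in SKO and -2.47 in STKO and a difference of -1.26 ± 0.35 (adjusted p = 0.0694 by limma), which was called in the authors' deposited log2 values (-1.21, adjusted p = 0.0209 by limma). Lum was called for the response at 48 h alone (-1.09, adjusted p = 0.0367 by limma). Ccn5 responded by -2.03 and -2.66 against -0.87 and -1.62 (adjusted p = 0.121 by limma), and Dcn by 0.53 and 0.43 against 0.77 and 1.10 (adjusted p = 0.123), neither called.

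In the related lists, the YAP and TEAD pathway gene Ankrd1, which like Ccn2 is a known target of that pathway, also had a more positive response with STING (1.58, adjusted p = 0.022 by limma), 1 of 13 in its list. Over all genes 2.99% had more positive and 3.43% more negative responses with STING. Mfap4 (-1.12) and Emilin1 (-0.88) of the elastic fibre genes and Aspn (-0.92, detected on 6 arrays) of the proteoglycans had more negative ones. Of the fibroblast markers, Col1a2 (-1.06) and Pdgfra (-1.48) did too, 2 of 10, as did Adgre1 (-0.82) and C1qc (-0.85), 2 of 9 macrophage markers, and Lpl (-1.89), 1 of 3 adipocyte markers. More positive with STING were the TGF-beta pathway ubiquitin ligase gene Smurf1 (0.75), 1 of 15, and the bone marker Bglap (2.75, detected on 5 arrays), 1 of 5. Bglap read 6.75 to 8.56 on the WT and TKO arrays under DMBA, 6.03 in STKO at 48 h and 4.40 to 4.95 elsewhere. It was tested because of the arrays where it was high, so its difference is no support for a dependence on STING. Of 5 genes read as markers of the response to DMBA, the p53 target Cdkn1a (0.82) and the detoxifying enzyme gene Nqo1 (1.03) had a more positive response with STING, and the median was 0.82. The part of these in the Postn and Ccn2 differences was not tested. Whether the DMBA response depended on Trex1 status was tested in the same way. Limma called 0 of the 9 genes and 0 of all 18389 probes (0% called), with 290 probes and 0 of the 9 genes at an unadjusted p under 0.05. The largest of these differences was 1.26 ± 0.89 for Eln.

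**Figure D5:**
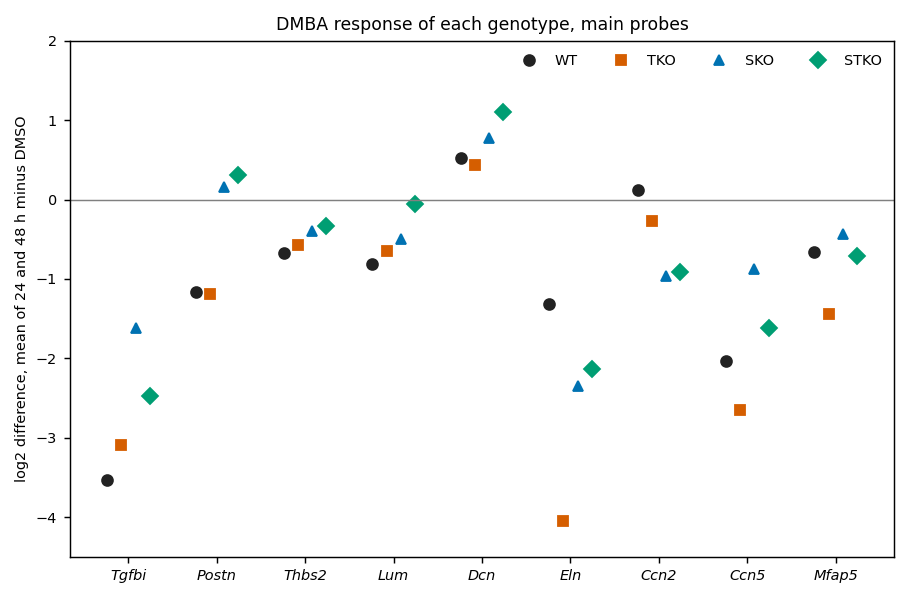
Mean difference from DMSO over 24 h and 48 h of DMBA in log2 signal (y axis) of the main probe of each gene (x axis), with 1 marker per genotype. For Postn the WT and TKO markers lie near -1.2 and those of SKO and STKO above 0, and for Ccn2 the SKO and STKO markers lie near -0.9.

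Across the 12 arrays the 9 genes did not form 1 group. As a description over arrays that share genotypes and treatments, Pearson's r between main probes was 0.80 for Tgfbi and Ccn5, 0.79 for Postn and Thbs2, 0.74 for Thbs2 and Mfap5, and -0.89 for Dcn and Ccn2. The neighbours Dcn and Lum had r = 0.55. The genes most like each by r over the 12 arrays were the amino acid transporter Slc38a1 for Tgfbi (0.98), the actin gene Acta2 for Postn (0.93), Dysf for Thbs2 (0.98), Zfp36l1 for Lum (0.95), Fbxl5 for Dcn (0.95), the cadherin Cdh13 for Eln (0.97), Mfsd2a for Ccn2 (0.96), the collagen Col6a2 for Ccn5 (0.98) and Nostrin for Mfap5 (0.96). The leukocyte surface gene Cd52 was the third for Thbs2 (0.97). Ranked next for the others were Ppp4r1 and Mier3 for Tgfbi, Itgb5 and Rrad for Postn, Shfl and Smad3 for Lum, Tbcel and Vegfd for Dcn, Smad2 and Rflna for Eln, Myef2 and Vim for Ccn2, Mlf1 and Slc7a3 for Ccn5, and Sirpa and Lpxn for Mfap5, with Usp9x second for Thbs2. Of these like genes, Rflna was detected on 3 arrays, Cdh13 on 5, Rrad on 7, Mfsd2a on 8, Nostrin on 11 and the rest on all 12. Eln was detected on 5 arrays and Postn probe 1 on 8, so their r rest partly on values near background.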

How the data were processed

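RNA of 12 fibroblast cultures was read on Illumina MouseWG-6 arrays. The deposited signals are linear intensities, unnormalized per the file headers. The deposited detection column is a score that runs as 1 minus a detection p. The authors' separate log2 table is quantile-normalized and centred on each probe's median, as its values show, and was used as an alternative. No label names the scanner or software. The annotation gave 34885 of 45281 probes 1 gene symbol, 18 several and 10378 none.

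Signals were corrected with a normal-exponential model using the detection p (offset 16), quantile normalized and log2 transformed (limma 3.58.1, R 4.3.3). Probes with detection p under 0.01 on at least 2 of 12 arrays were tested, by lmFit and eBayes with genotype and treatment as terms (6 residual degrees of freedom, 4 with an interaction). Arrays correlated at 0.961 to 0.995 across all 45281 probes, tested or not, and the number of arrays limits the precision. The fit was tested on simulated data. The 9 genes and the lists were chosen with earlier results of these data known. Named are all 9 genes with every probe, up to 4 called genes per list with the smallest p, and the 3 genes most like each by Pearson's r. Alternatives were other scaling, filters, probes and times, fits without 1 genotype or treatment and, added after seeing the data, undetected values raised to the detection limit.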

Additional observations from a re-analysis of the deposited data

Results flagged for a closer look

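The DMBA response of 3 probes differed between the genotypes with STING and those without it by the test of the difference itself. Postn probe 1 differed by -1.41, more negative in WT and TKO, where its 4 DMBA arrays were not above the detection limit. Ccn2 probe 1 differed by 0.86, more negative in SKO and STKO. The fitted value of Postn probe 3 was -1.25, but this probe was detected on 3 of the 12 arrays, all of SKO or STKO under DMBA, and was tested because of them, so it gives no support to the difference on probe 1. In 27 groups of 4 within-genotype differences, 0 had a genotype that stood far from the other 3.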

How the results depend on the processing

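Of 26 called results on the 9 genes, 9 kept their call in each alternative that tested them and 17 lost it in at least 1, and 0 reversed. Among those kept are Eln at 48 h and the STING dependence of Postn probe 1. Both rest on undetected arrays that the alternatives reuse, so keeping the call is no support there. Counts that moved were these. Falls at 24 h, 4 on all arrays, were 2 with no filter on dim probes and 0 to 2 with 1 genotype left out. From 24 h to 48 h the falls, 3 on all arrays, were 1 with no filter and 0 to 3 with 1 genotype left out, and the rises, 1 on all arrays, were 2 in the authors' table, with median scaling and with detection on all arrays required. For TKO against WT the rises were 1 in the authors' table (Eln, 1.87) and 0 to 1 with 1 treatment left out, and the falls 1 in each such fit. For SKO against WT the rises were 0 with no filter and 0 to 2, and the falls 0 to 2, with 1 treatment left out. For STKO against TKO the falls were 1 with no filter and 0 to 2, and the rises 0 to 2, with 1 treatment left out. For the STING dependence the falls were 2 in the authors' table and at 48 h alone, and the rises 0 with median scaling, no filter, the mean of all probes and 24 h alone. Fits without 1 treatment or genotype hold fewer arrays; the cause of the other changes was not tested. With median scaling the share of rises among called probes went from 50.1% to 69.1% for 48 h against 24 h and from 43.4% to 32.3% for SKO against WT. The median of all tested probes moved by at most 0.09. Genotype is a term of the fit, so treatments were compared within genotypes throughout, and with 1 array per combination no replicate number was left to use. Signal near background limits Eln and Postn.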
